A study of Homo sapiens with 12 samples.

Results

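The UGT2B enzymes are UDP-glucuronosyltransferases of the endoplasmic reticulum, and their RNA is described here in LNCaPabl-Enza and LNCaPabl-Abi, a pair of sublines of the LNCaP prostate cancer cell line. The 7 members (UGT2B4, UGT2B7, UGT2B10, UGT2B11, UGT2B15, UGT2B17 and UGT2B28) were chosen by gene symbol, and where a symbol has several rows the row is selected on its mean level over the arrays, the brightest being kept. All 7 were measured among 17687 named genes, each by a single row, so this step removed none. The 4 groups held 3 arrays each. Enza_Dex was LNCaPabl-Enza with 100 nM dexamethasone for 24 h, Enza_Ctrl the same line with DMSO, Abi_Dex was LNCaPabl-Abi with the same dexamethasone treatment, and Abi_Ctrl that line with DMSO. Dexamethasone is a synthetic glucocorticoid, and DMSO is its solvent. The labels do not spell out Abi or Enza, and they do not say whether the 3 arrays of a group came from separate cultures, so the p-values rest on the spread among arrays, part of which may be technical. Since each name stands for a single subline, a difference between the lines is one between these sublines, and in bulk RNA fewer expressing cells and less RNA per cell cannot be told apart.

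UGT2B enzymes transfer glucuronic acid from UDP-glucuronic acid to steroids, bile acids and drugs, which makes them soluble and, for steroid hormones, unable to activate their receptors. In prostate epithelium UGT2B15 and UGT2B17 are the main enzymes that conjugate dihydrotestosterone, testosterone and their reduced metabolites, and in LNCaP cells androgens are known to lower both. The genes lie side by side on chromosome 4 and are close in sequence, so array probes of a member can also bind RNA of another. The probe sequences were not used here, and how far each row reads its own gene was not tested.

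One array, Enza_Ctrl replicate 2, was unlike the rest, and the tests of the members were run with and without it. Over all genes it correlated with the others at a median Pearson r of 0.856, against 0.986 to 0.990 for the other 11. Background control rows had a median of 5.77 on this array and of 3.95 to 3.98 on the others. Of the members, UGT2B4, UGT2B10, UGT2B11 and UGT2B28 all had their highest value of the 12 arrays there. Epithelial markers of the prostate were not equally high. KRT8 was at 13.81 to 14.63 in LNCaPabl-Enza and 13.64 to 14.60 in LNCaPabl-Abi. KLK3 was lower, at 6.63 to 8.06 in LNCaPabl-Enza and 6.68 to 9.88 in LNCaPabl-Abi, apart from 8.83 on that array. HOXB13 was at 12.95 to 13.23 in LNCaPabl-Enza and 12.48 to 13.11 in LNCaPabl-Abi, apart from 10.94 on that array. Hepatocyte markers were searched because liver is rich in UGT2B. All 10 were measured, and their summed log2 level was 35.4 to 37.7 in LNCaPabl-Enza and 35.5 to 38.3 in LNCaPabl-Abi, and 48.6 on Enza_Ctrl replicate 2. Apart from that array, albumin (ALB) was at 4.29 to 4.84 in LNCaPabl-Enza and 4.08 to 5.15 in LNCaPabl-Abi. Of the luminal, hepatocyte, basal, fibroblast, immune and endothelial marker lists, 0 genes were called between the lines in either treatment. Of the luminal list 8 of 10 genes were measured, and of the basal list 2 of 4. With 12 arrays 0.266% of all genes were called between the DMSO groups and 0.277% between the dexamethasone groups. Without Enza_Ctrl replicate 2 the shares were 1.29% and 2.28%, so a count of 0 in lists this small is near the background.

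Upstream sequences are shown because the members are close relatives that differed between the lines in the same direction. RefSeq (GRCh38.p14) gave the 250 bases before the transcript start for 4 of the 7 members. Capitals mark the letters TATTTAC or TGTTTAC, read on either strand, which are core letters of forkhead factor sites such as those of FOXA1, a factor of prostate luminal cells. No marked stretch overlaps another. UGT2B15 lies on the minus strand (chr4:68670653-68670902), UGT2B10 on the plus strand (chr4:68815744-68815993), UGT2B11 on the minus strand (chr4:69214749-69214998) and UGT2B7 on the plus strand (chr4:69096224-69096473).
UGT2B15: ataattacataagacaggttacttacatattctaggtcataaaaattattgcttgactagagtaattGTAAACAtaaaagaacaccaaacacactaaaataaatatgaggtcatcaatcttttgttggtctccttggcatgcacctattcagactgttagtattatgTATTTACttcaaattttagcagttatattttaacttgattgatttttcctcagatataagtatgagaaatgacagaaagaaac
UGT2B10: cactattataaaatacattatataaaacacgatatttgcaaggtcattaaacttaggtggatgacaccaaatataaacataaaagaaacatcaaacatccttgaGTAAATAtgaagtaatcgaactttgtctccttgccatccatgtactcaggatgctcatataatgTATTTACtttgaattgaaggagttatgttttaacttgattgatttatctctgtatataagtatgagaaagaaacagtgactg
UGT2B11: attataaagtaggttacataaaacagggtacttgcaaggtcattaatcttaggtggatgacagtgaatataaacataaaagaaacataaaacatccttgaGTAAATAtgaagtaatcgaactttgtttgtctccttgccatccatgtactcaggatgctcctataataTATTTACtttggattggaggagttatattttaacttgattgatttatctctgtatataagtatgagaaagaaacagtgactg
UGT2B7: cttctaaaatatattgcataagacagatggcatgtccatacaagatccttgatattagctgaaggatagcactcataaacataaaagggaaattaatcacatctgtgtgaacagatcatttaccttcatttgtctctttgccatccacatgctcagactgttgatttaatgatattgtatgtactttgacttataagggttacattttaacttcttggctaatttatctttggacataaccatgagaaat

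The 4 windows were alike to different degrees. After alignment UGT2B10 and UGT2B11 shared 90.2% of positions, and UGT2B15 shared 70.0% with UGT2B11, 67.8% with UGT2B10 and 58.4% with UGT2B7. The related UGT2A genes shared between 44.8% and 49.6% with each of these members. The letters TATTTAC occurred in 3 of the 4 windows (UGT2B15, UGT2B10 and UGT2B11), and in 2.39% of all 35116 windows of this length. In these members a match read in the direction of the gene, as printed above, began 82 or 83 bases before the start. TGTTTAC occurred in 1 of the 4 (UGT2B15) and in 2.98% of all. AGGTCA, a half-site of nuclear receptors, occurred in 3 of the 4 (the same members as TATTTAC) and in 12.1% of all. AGAACA, a half-site of the glucocorticoid receptor, occurred in 1 of the 4 (UGT2B15) and in 12.4% of all. All were searched on both strands and none overlapped another. The windows are alike in sequence, so their matches are not separate occurrences. The shares over all windows therefore do not measure enrichment in these members. A match describes letters and not a bound site.

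All 7 members were higher in LNCaPabl-Enza than in LNCaPabl-Abi, with either treatment and on every array. The lowest of the 6 Enza arrays lay above the highest of the 6 Abi arrays for each of the 7, an order that 0.746% of all genes showed. UGT2B17 and UGT2B15 differed by 3.16 to 3.94 on the log2 scale. Dexamethasone was followed by no called change of any member in either line. Levels are deposited log2 values, on which a difference of 1 is a doubling, and folds are those of the deposited scale, whose range is wide for arrays.

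**Figure D1:**
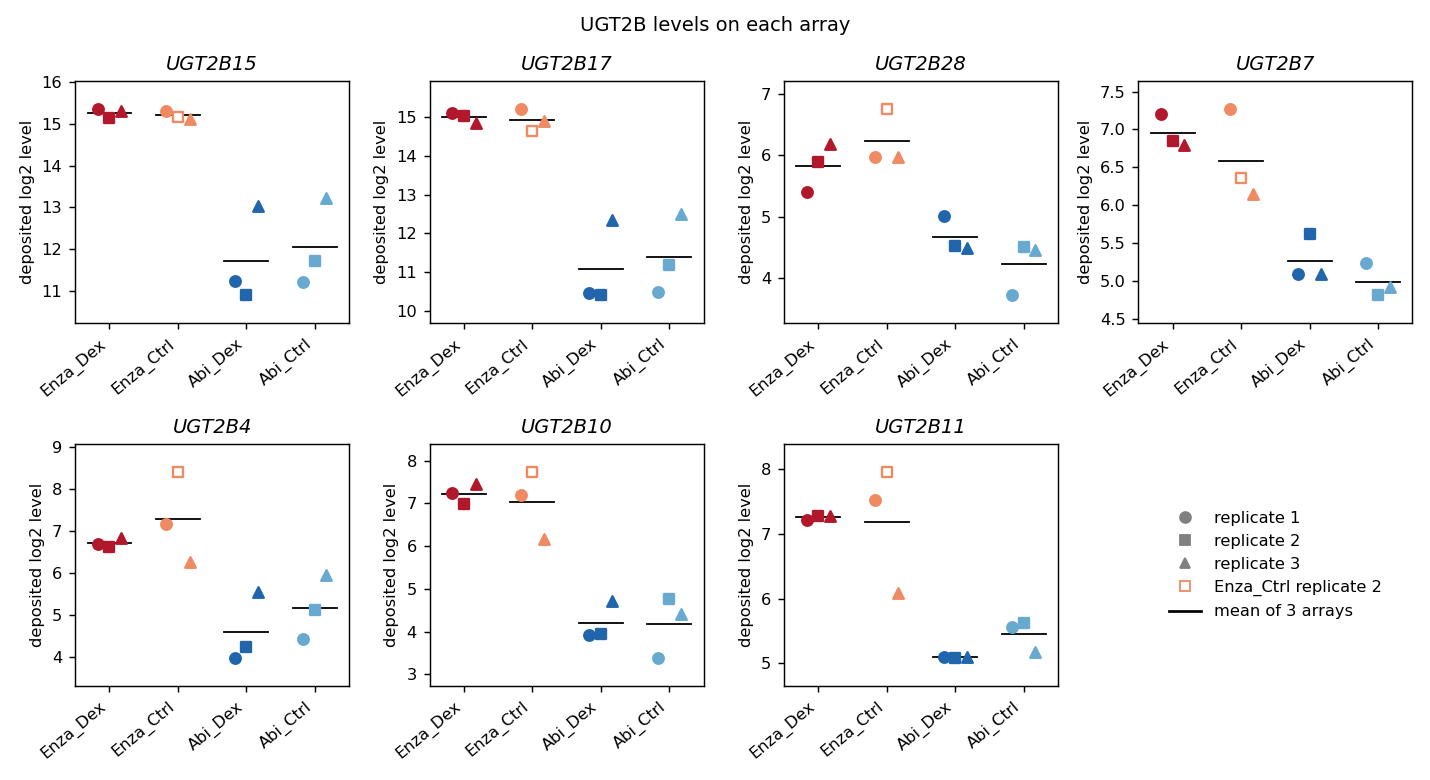
Deposited log2 level of each UGT2B gene (vertical axis, a separate scale per panel) on every array, by group. Points are arrays, with circles, squares and triangles for replicates 1, 2 and 3, the open square is Enza_Ctrl replicate 2, and bars are means of 3 arrays. In each panel all Enza points lie above all Abi points, and replicate 3 of both Abi groups lies above the other Abi arrays for UGT2B15, UGT2B17 and UGT2B4.

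UGT2B17, which conjugates testosterone, dihydrotestosterone and androsterone, had log2 levels of 15.13, 15.03 and 14.86 in Enza_Dex and 15.22, 14.64 and 14.92 in Enza_Ctrl. It had 10.46, 10.39 and 12.35 in Abi_Dex and 10.48, 11.19 and 12.50 in Abi_Ctrl. The Enza arrays lay within 0.58 of each other, while the Abi arrays spread over 2.11 because replicate 3 was high with both treatments. Enza_Dex exceeded Abi_Dex by 3.94 ± 0.56 (SE, limma adjusted p = 0.0147), or 15.3-fold. Without Enza_Ctrl replicate 2, which is in neither of these groups but enters the spread that limma shares across groups and genes, the same difference had an SE of 0.48 and an adjusted p of 0.000309. The median residual SD over all genes was 0.43 with that array and 0.258 without it. Enza_Ctrl exceeded Abi_Ctrl by 3.54 ± 0.56 (SE, limma adjusted p = 0.0294), and by 3.68 ± 0.54 (adjusted p = 0.00229, 12.8-fold) without that array.

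UGT2B15, which conjugates dihydrotestosterone and its reduced metabolite androstanediol, followed the same pattern. Its log2 levels were 15.36, 15.14 and 15.32 in Enza_Dex and 15.32, 15.17 and 15.13 in Enza_Ctrl. They were 11.23, 10.89 and 13.05 in Abi_Dex and 11.20, 11.71 and 13.23 in Abi_Ctrl. Again the Enza arrays were close together, within 0.23, and Abi replicate 3 stood above the other Abi arrays in both groups. Enza_Dex exceeded Abi_Dex by 3.55 ± 0.57 (SE, limma adjusted p = 0.0320), or 11.7-fold, and with an SE of 0.50 and an adjusted p of 0.000989 without Enza_Ctrl replicate 2. Enza_Ctrl exceeded Abi_Ctrl by 3.16 ± 0.57 (SE, limma adjusted p = 0.0541), which did not pass, and by 3.18 ± 0.55 (adjusted p = 0.00818, 9.07-fold) without that array.

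Abi replicate 3 narrowed the gap without closing it. Enza minus Abi for UGT2B17 was 4.67 and 4.63 in dexamethasone replicates 1 and 2, and 2.52 in replicate 3. With DMSO it was 4.74, 3.45 and 2.41 in replicates 1, 2 and 3. For UGT2B15 the dexamethasone values were 4.13, 4.25 and 2.27, and the DMSO values 4.11, 3.47 and 1.91. The labels do not say that a shared number marks a shared culture or day.

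UGT2B28, which also acts on androgens and bile acids, had log2 levels of 5.41, 5.89 and 6.18 in Enza_Dex and 5.97, 6.75 and 5.97 in Enza_Ctrl. It had 5.01, 4.51 and 4.48 in Abi_Dex and 3.72, 4.51 and 4.45 in Abi_Ctrl. The lines were separated by 0.39 between their nearest arrays. Between the DMSO groups UGT2B28 was higher in Enza_Ctrl by 2.01 ± 0.33 (SE, limma adjusted p = 0.0332), or by 1.75 ± 0.28 (adjusted p = 0.00455) without Enza_Ctrl replicate 2. Between the dexamethasone groups the difference was 1.16 ± 0.33 (SE, limma adjusted p = 0.377), and it passed without that array (SE 0.25, adjusted p = 0.0228).

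UGT2B7 takes morphine, oestrogens and androsterone as substrates. Its log2 levels were 7.20, 6.85 and 6.79 in Enza_Dex and 7.27, 6.35 and 6.14 in Enza_Ctrl. They were 5.09, 5.61 and 5.09 in Abi_Dex and 5.24, 4.81 and 4.92 in Abi_Ctrl. It differed from the other dim members in that Enza_Ctrl replicate 2 was not its highest array. The difference was 1.68 ± 0.31 (SE, limma adjusted p = 0.0588) between Enza_Dex and Abi_Dex, and 1.60 ± 0.31 (adjusted p = 0.0736) between Enza_Ctrl and Abi_Ctrl. Without Enza_Ctrl replicate 2 both passed, at 1.68 ± 0.26 (adjusted p = 0.00239) and 1.71 ± 0.29 (adjusted p = 0.00712).

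UGT2B4, an enzyme of bile acid conjugation in liver, had log2 levels of 6.70, 6.63 and 6.84 in Enza_Dex and 7.16, 8.41 and 6.26 in Enza_Ctrl. It had 3.97, 4.23 and 5.55 in Abi_Dex and 4.42, 5.12 and 5.94 in Abi_Ctrl. Here too replicate 3 was the highest Abi array with both treatments. Enza_Dex exceeded Abi_Dex by 2.14 ± 0.57 (SE, limma adjusted p = 0.298), which passed without Enza_Ctrl replicate 2 (SE 0.40, adjusted p = 0.00829). Enza_Ctrl exceeded Abi_Ctrl by 2.12 ± 0.57 (adjusted p = 0.246), and by 1.55 ± 0.44 (adjusted p = 0.131) without that array, so this difference passed in neither set.

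UGT2B10, which attaches glucuronic acid to the nitrogen of amines such as nicotine, had log2 levels of 7.24, 6.99 and 7.46 in Enza_Dex and 7.19, 7.74 and 6.17 in Enza_Ctrl. It had 3.92, 3.93 and 4.72 in Abi_Dex and 3.38, 4.76 and 4.41 in Abi_Ctrl. Its Abi values lay near the median of the background control rows, as did the Abi values of UGT2B28 and the lower ones of UGT2B4. Single background rows reached 7.36 to 8.21, so the Enza values of UGT2B10 lay within their range too. Apart from Enza_Ctrl replicate 2, all values of UGT2B4, UGT2B7, UGT2B11 and UGT2B28 in both lines also lay within it. Whether these rows were above background was not tested, and where the lower group is at background the difference can understate the change and its size has no rank among the members. Enza_Dex exceeded Abi_Dex by 3.04 ± 0.44 (SE, limma adjusted p = 0.0173), with an SE of 0.34 and an adjusted p of 0.000135 without Enza_Ctrl replicate 2. Enza_Ctrl exceeded Abi_Ctrl by 2.85 ± 0.44 (adjusted p = 0.0290), and by 2.49 ± 0.38 (adjusted p = 0.00314) without that array.

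UGT2B11, whose substrates are less well defined, was the tightest member after dexamethasone. Its log2 levels were 7.20, 7.27 and 7.26 in Enza_Dex, against 5.10, 5.08 and 5.10 in Abi_Dex. With DMSO they were 7.52, 7.95 and 6.08 in Enza_Ctrl, against 5.57, 5.62 and 5.18 in Abi_Ctrl, where replicate 3 was the lowest of each group. The difference was 2.15 ± 0.39 (SE, limma adjusted p = 0.0530) between Enza_Dex and Abi_Dex, and 1.73 ± 0.39 (adjusted p = 0.130) between Enza_Ctrl and Abi_Ctrl. Both passed without Enza_Ctrl replicate 2, at 2.15 ± 0.27 (adjusted p = 0.000445) and 1.34 ± 0.31 (adjusted p = 0.0455). The second call was thin: on leaving out a further array UGT2B11 was called in 1 of 11 fits, that without Enza_Ctrl replicate 3, where a single Enza_Ctrl array remained and was assumed to vary like the other groups. Over the 11 fits it lay between 0.63 and 2.06.

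Counted together, 3 of the 7 members were called higher in Enza_Dex than in Abi_Dex with 12 arrays (UGT2B10, UGT2B15 and UGT2B17), where 0.124% of all genes were called higher and 0.277% in either direction. Leaving out Enza_Ctrl replicate 2, all 7 were called, against 0.752% of all genes called higher and 2.28% in either direction. The same number, all 7, was called by a fit of those 6 arrays alone, which never uses Enza_Ctrl replicate 2. Between Enza_Ctrl and Abi_Ctrl, 3 of the 7 were called with 12 arrays (UGT2B10, UGT2B17 and UGT2B28), against 0.0565% of all genes called higher and 0.266% in either direction. It was 6 of the 7 without that array, against 0.334% and 1.29%. The median difference of the 7 members was 2.15 between the dexamethasone groups, where the median of all genes was -0.01. It was 2.12 between the DMSO groups with 12 arrays and 1.75 without Enza_Ctrl replicate 2, where the median of all genes was -0.03 with 12 arrays and -0.0022 without that array. The dexamethasone comparison and the DMSO comparison use different arrays, although their SEs come from a shared fit. Since probes of a member can bind RNA of another, the 7 members may not be separate readings. All but UGT2B15 and UGT2B17 also lay largely within the range of the background rows.

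With 12 arrays the calls were close to the threshold. Between Enza_Ctrl and Abi_Ctrl the number of members called was 0 without Abi_Ctrl replicate 1 or 2, Abi_Dex replicate 1 or 2, Enza_Ctrl replicate 1, or any array of Enza_Dex, and it was 5 without Enza_Ctrl replicate 3. Between Enza_Dex and Abi_Dex it was 0 without Abi_Dex replicate 1 or 2 or any array of Enza_Dex, and 5 without Enza_Ctrl replicate 3. When a second array was left out together with Enza_Ctrl replicate 2, 5 to 7 members were called between the dexamethasone groups. Between the DMSO groups it was 4 to 6, except for 0 when Enza_Ctrl replicate 1 was left out as well. That fit, like the one without Enza_Ctrl replicate 3 (6 called), left the group with a single array.

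**Figure D2:**
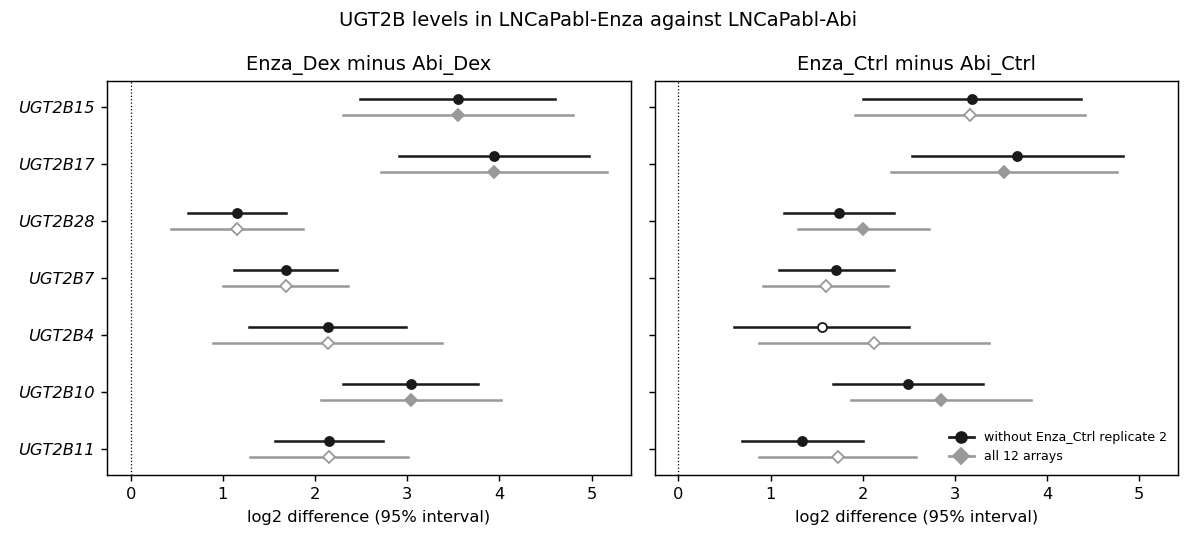
Log2 difference with its 95% interval for each UGT2B gene, Enza_Dex minus Abi_Dex on the left and Enza_Ctrl minus Abi_Ctrl on the right. Black circles are fits without Enza_Ctrl replicate 2, grey diamonds are fits of 12 arrays, and filled symbols have a limma adjusted p under 0.05. Every interval lies above 0.

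**Figure D3:**
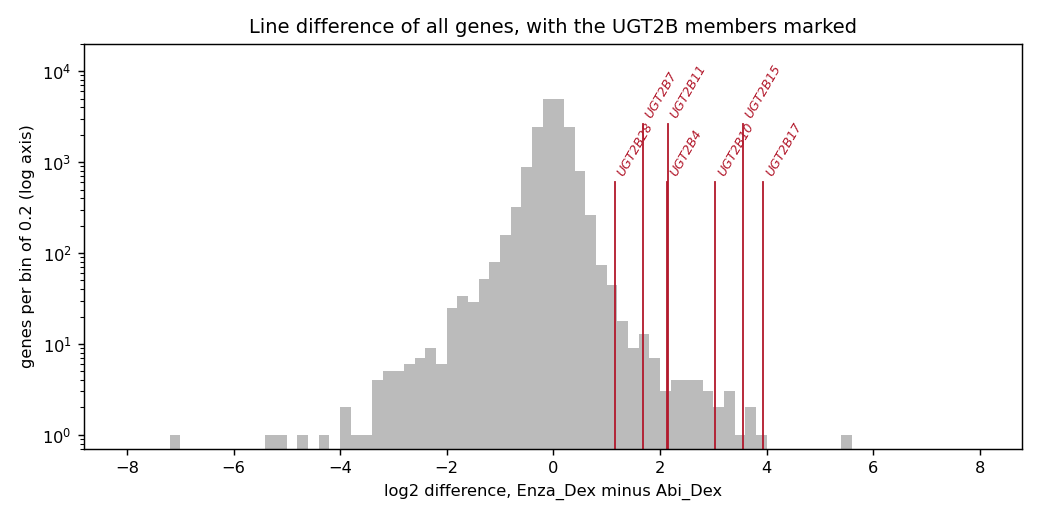
Number of genes (log axis) by log2 difference, Enza_Dex minus Abi_Dex, in bins of 0.2 for all 17687 genes, with red lines at the 7 UGT2B genes. The members lie between 1.16 and 3.94, to the right of the bulk of genes around 0.

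The neighbours of the UGT2B genes on chromosome 4 were mostly too dim to compare. In RefSeq order the cluster runs UGT2B17, UGT2B15, UGT2B10, UGT2B7, UGT2B11, UGT2B28 and UGT2B4, with UGT2A3 between UGT2B10 and UGT2B7, and UGT2A2 and UGT2A1 after UGT2B4. UGT2A1, UGT2A2 and UGT2A3 were not analysed here. Of 11 other protein-coding genes in or beside it, 8 were measured, and 0 were called between the lines in either treatment without Enza_Ctrl replicate 2. Since 1.29% of all genes were called between the DMSO groups and 2.28% between the dexamethasone groups, a count of 0 among so few is near the background. TMPRSS11B, SULT1B1, SULT1E1, CSN1S1, CSN2 and STATH lay between 2.68 and 4.59 on those 11 arrays, around the median of the background rows. TMPRSS11E, a membrane serine protease whose gene lies next to UGT2B17, differed by 0.30 ± 0.20 (SE, limma adjusted p = 0.659) between Enza_Dex and Abi_Dex and by 0.43 ± 0.23 (adjusted p = 0.522) between Enza_Ctrl and Abi_Ctrl. SULT1B1, a sulfotransferase on the other side, differed by -0.24 ± 0.25 (SE, limma adjusted p = 0.828) and -0.02 ± 0.28 (adjusted p = 0.987) in the same comparisons. YTHDC1, a nuclear reader of methylated RNA, was at 11.73 to 12.10 in LNCaPabl-Enza and 11.64 to 12.25 in LNCaPabl-Abi over 12 arrays.

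**Figure D4:**
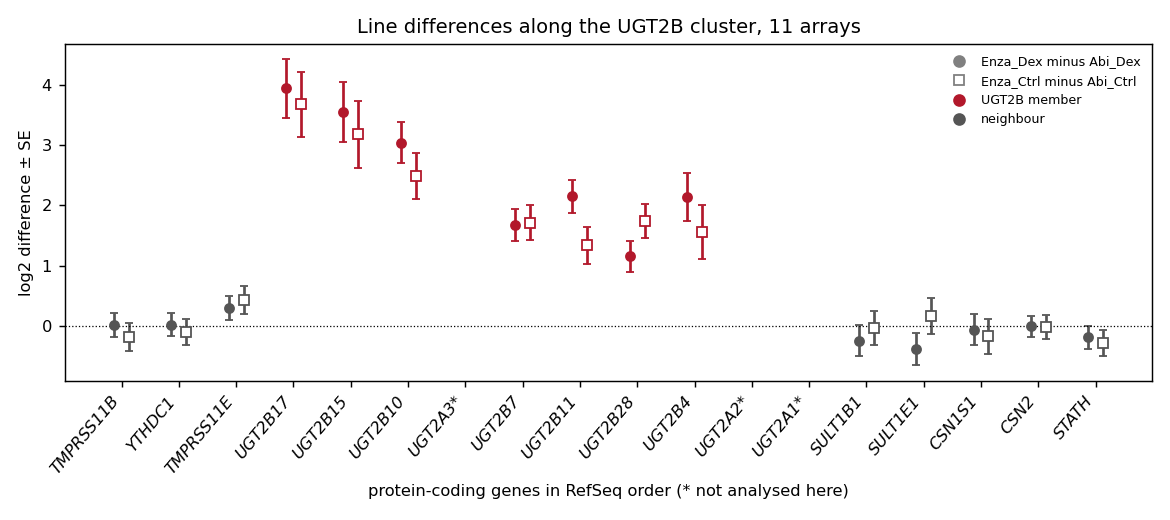
Log2 difference between the lines (vertical axis, with SE) for protein-coding genes in their order along chromosome 4, without Enza_Ctrl replicate 2. Filled circles are Enza_Dex minus Abi_Dex, open squares Enza_Ctrl minus Abi_Ctrl, red the UGT2B genes and grey their neighbours. The UGT2B genes lie between 1.16 and 3.94, and the neighbours between -0.38 and 0.43.

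Dexamethasone moved no member past the threshold in LNCaPabl-Enza. By limma 0 of the 7 were called with 12 arrays and 0 without Enza_Ctrl replicate 2, where 0% of all genes were called in either set, and 3.96% and 3.0% of all genes had an unadjusted p under 0.05. UGT2B17 changed by 0.08 ± 0.56 (SE, limma adjusted p = 0.937), or by -0.06 ± 0.54 without that array, with a 95% interval from -1.21 to 1.09. UGT2B15 changed by 0.06 ± 0.57 (SE, adjusted p = 0.952), or 0.05 ± 0.55 with an interval from -1.14 to 1.23. The intervals rest on a spread pooled over the 4 groups, so the uneven Abi arrays widen them. Within LNCaPabl-Enza the 6 arrays of UGT2B15 spanned only 0.23. UGT2B4 was at -0.56 ± 0.57 with 12 arrays and 0.01 ± 0.44 without that array, and UGT2B28 at -0.41 ± 0.33 and -0.15 ± 0.28. The remaining 3 members lay between 0.07 and 0.36 with 12 arrays and between 0.24 and 0.55 without that array.

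In LNCaPabl-Abi, where 5 other genes were called by limma with 12 arrays and all 5 rose with dexamethasone, 0 of the 7 members were called, against 0.0283% of all genes, with 1.36% of all genes at an unadjusted p under 0.05. With that array of the other line left out it was again 0 of 7, against 0.141% of all genes and 7.09% at an unadjusted p under 0.05. UGT2B17 changed by -0.32 ± 0.56 (SE, limma adjusted p = 1.00) and UGT2B15 by -0.32 ± 0.57 (adjusted p = 1.00). Without that array their 95% intervals ran from -1.35 to 0.71 and from -1.38 to 0.74. Compared by replicate number, UGT2B17 in Abi_Dex minus Abi_Ctrl was -0.02, -0.80 and -0.16. UGT2B11 was the only member whose groups did not overlap, with 5.08 to 5.10 in Abi_Dex against 5.18 to 5.62 in Abi_Ctrl. It differed by -0.36 ± 0.39 (SE, limma adjusted p = 1.00), or with an SE of 0.27 and an adjusted p of 0.803 without that array, and 6.01% of all genes were lower without overlap. UGT2B28 was at 0.44 with an SE of 0.33 (adjusted p = 1.00) in 12 arrays and 0.25 (adjusted p = 0.740) in 11. UGT2B4 was at -0.58 with an SE of 0.57 (adjusted p = 1.00) in 12 arrays and 0.40 (adjusted p = 0.783) in 11.

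**Figure D5:**
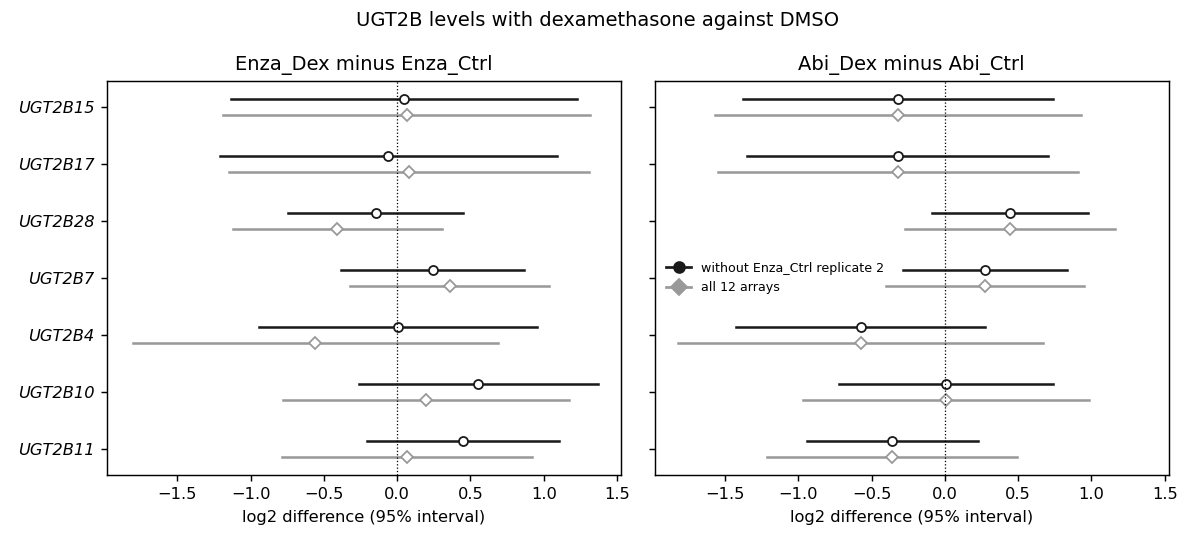
Log2 difference with its 95% interval for each UGT2B gene, Enza_Dex minus Enza_Ctrl on the left and Abi_Dex minus Abi_Ctrl on the right. Black circles are fits without Enza_Ctrl replicate 2, grey diamonds are fits of 12 arrays, and open symbols have a limma adjusted p of 0.05 or more. All intervals include 0.

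The response of LNCaPabl-Enza minus that of LNCaPabl-Abi was tested directly, and 0 of the 7 members were called with 12 arrays or without Enza_Ctrl replicate 2. By limma 0% of all genes were called in either set, with 1.5% and 3.2% of all genes at an unadjusted p under 0.05. UGT2B28 was at -0.85 ± 0.46 (SE, limma adjusted p = 0.793), and at -0.59 ± 0.38 (adjusted p = 0.999) without that array. UGT2B11 was at 0.42 ± 0.55 (adjusted p = 0.797), and at 0.81 ± 0.41 (adjusted p = 0.999) without it. UGT2B17 was at 0.40 ± 0.79 (adjusted p = 0.852) with 12 arrays and 0.26 ± 0.72 (adjusted p = 0.999) without that array. UGT2B15 was at 0.39 ± 0.80 (adjusted p = 0.858) and 0.37 ± 0.74 (adjusted p = 0.999). This comparison shares all its arrays with those above.

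In the order of the group levels both Enza groups stood above both Abi groups for every member. Neighbours in that order within a line overlapped, except for UGT2B11 in LNCaPabl-Abi. Over the 11 arrays, which fall into 2 clusters by line, Pearson r between members ran between 0.759 (UGT2B4 with UGT2B28) and 0.997 (UGT2B15 with UGT2B17). Within the 6 Abi arrays r was 0.994 for UGT2B15 with UGT2B17, 0.938 for UGT2B4 with UGT2B15 and 0.962 for UGT2B4 with UGT2B17. UGT2B7 had r of -0.56 with UGT2B15 and UGT2B11 -0.23 on those arrays. The points share arrays and perhaps probes, so the values are descriptions.

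Outside the UGT2B members, ACSM3, SMYD2, CDH26 and KIF16B had the highest Pearson r with UGT2B15 or UGT2B17 over the 11 arrays. The ranking used r and not the level itself. ACSM3, a mitochondrial acyl-CoA synthetase of medium-chain fatty acids, had r of 0.990 with UGT2B17 and 0.985 with UGT2B15 (0.985 and 0.977 over 12 arrays). Within the 6 Abi arrays its r with UGT2B17 was 0.980. Its log2 levels were 10.67, 10.54 and 10.34 in Enza_Dex and 10.86, 10.14 and 10.59 in Enza_Ctrl, against 8.41, 8.47 and 9.58 in Abi_Dex and 8.52, 9.12 and 9.56 in Abi_Ctrl. Thus ACSM3 also had its highest Abi values in replicate 3. SMYD2, a lysine methyltransferase, had r of 0.973 with UGT2B17 and 0.970 with UGT2B15. The third place was held by KIF16B, an endosomal kinesin, for UGT2B17 (r of 0.972) and by CDH26, a cadherin, for UGT2B15 (r of 0.964). Over 12 arrays the last 2 values were 0.721 and 0.492.

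Other genes tied to glucuronidation were covered in part. Of 15 other UDP-glycosyltransferases listed, 3 were analysed (UGT3A1, UGT3A2 and UGT8). The listed UGT1A and UGT2A genes were not analysed, so the values do not cover them. Among the 3, 0 were called in either comparison of the lines. There 0.334% and 0.752% of all genes were called higher without Enza_Ctrl replicate 2. UGT8, which makes galactolipids, was at 9.75 on average in Enza_Dex and 8.91 in Abi_Dex, a difference of 0.84 ± 0.23 (SE, limma adjusted p = 0.0811) without Enza_Ctrl replicate 2. Its arrays did not overlap there, with 9.40 to 10.13 in LNCaPabl-Enza and 8.63 to 9.37 in LNCaPabl-Abi, while Enza_Ctrl replicate 2 was at 6.82. UGT3A1 was at 0.62 ± 0.25 (adjusted p = 0.343) between Enza_Ctrl and Abi_Ctrl in those arrays. Of 6 genes that make or carry UDP-glucuronic acid or remove glucuronides, 0 were called with 12 arrays. There 0.266% of all genes were called between the DMSO groups and 0.277% between the dexamethasone groups. In the fit of 11 arrays, PGM1 was called lower in Enza_Dex than in Abi_Dex, where 1.53% of all genes were, at -1.27 ± 0.27 (SE, adjusted p = 0.0218), and this was the 1 call among the 6. PGM1 makes the glucose 1-phosphate from which UDP-glucose is built. UGDH, which oxidises UDP-glucose to UDP-glucuronic acid, differed by -0.36 ± 0.19 (adjusted p = 0.511) between Enza_Dex and Abi_Dex and by -0.09 ± 0.21 (adjusted p = 0.923) between Enza_Ctrl and Abi_Ctrl.

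Of 8 measured genes of steroid sulfation, the other route of conjugation, and of 5 measured efflux pumps for conjugates, 0 were called between the lines. Without Enza_Ctrl replicate 2, 1.29% of all genes were called between the DMSO groups and 2.28% between the dexamethasone groups. A count of 0 among so few is near that background. STS, the sulfatase that frees steroids from their sulfates, had the smallest p of its list and was at -0.68 ± 0.23 (SE, limma adjusted p = 0.210) between Enza_Dex and Abi_Dex and at -1.02 ± 0.26 (adjusted p = 0.0836) between Enza_Ctrl and Abi_Ctrl, both without Enza_Ctrl replicate 2. ABCC4, a pump for steroid conjugates, was at -0.38 ± 0.16 (adjusted p = 0.380) and -0.43 ± 0.18 (adjusted p = 0.374) in the same comparisons. Of 15 measured genes that form or reduce androgens, 0 were called between the lines with 12 arrays and 1 without Enza_Ctrl replicate 2. That call was between the dexamethasone groups, where 1.53% of all genes were called lower in Enza_Dex. HSD17B11, which oxidises androstanediol to androsterone, was lower in Enza_Dex than in Abi_Dex, with means of 9.58 and 11.23, a difference of -1.66 ± 0.25 (SE, adjusted p = 0.00205) without Enza_Ctrl replicate 2, and with an adjusted p of 0.0929 with 12 arrays. Between Enza_Ctrl and Abi_Ctrl HSD17B11 was at -0.96 ± 0.28 (adjusted p = 0.143) without that array.

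Receptors and transcription factors tied to UGT2B genes were measured for 13 of 19, and 0 were called between the lines in either set of arrays. Between 0.266% and 2.28% of all genes were called in these comparisons, so a count of 0 among 13 is near the background. FOXA1, the luminal factor whose core letters are marked in the sequences above, differed by -0.18 ± 0.18 (SE, limma adjusted p = 0.808) between Enza_Dex and Abi_Dex and by -0.06 ± 0.20 (adjusted p = 0.945) between Enza_Ctrl and Abi_Ctrl, without Enza_Ctrl replicate 2. NR3C1, which encodes the glucocorticoid receptor, had the smallest p of the list between Enza_Dex and Abi_Dex, at -2.48 ± 0.75 (adjusted p = 0.127), and was at -2.87 ± 0.84 (adjusted p = 0.140) between Enza_Ctrl and Abi_Ctrl. Replicate 3 of LNCaPabl-Enza stood apart for NR3C1, at 9.03 in Enza_Dex, against 6.72 and 6.38 in the others of that group, and at 10.37 in Enza_Ctrl, against 6.51 in replicate 1. PPARA, a fatty acid receptor, had the smallest p between the DMSO groups, at -0.93 ± 0.24 (adjusted p = 0.0831). These values leave out the same array.

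Androgen-induced genes, 14 of 16 measured, differed in both directions. Between Enza_Dex and Abi_Dex 4 of the 14 were positive, against 48.6% of all genes, and the list's median was -0.65. With 11 arrays RHOU, a small GTPase, was the 1 called, at -1.30 ± 0.30 (SE, limma adjusted p = 0.0373), where 1.53% of all genes were called lower. Between Enza_Ctrl and Abi_Ctrl 5 of the 14 were positive without that array, against 49.6% of all genes, and the median was -0.17. There the secreted protease KLK4 was the 1 called and was higher in Enza_Ctrl, at 2.51 ± 0.46 (adjusted p = 0.0118), or 2.21 ± 0.50 (adjusted p = 0.135) with 12 arrays. In this comparison 0.334% of all genes were called higher with 11 arrays. With dexamethasone in LNCaPabl-Abi 12 of the 14 were positive, against 50.4% of all genes, with a median of 0.64. The median of the 7 UGT2B members there was -0.32, with 3 of the 7 positive. KLK4, TMPRSS2 and RHOU were called higher without Enza_Ctrl replicate 2, against 0.141% of all genes, the first by 4.73 ± 0.41 (SE, adjusted p = 5.08e-05). The values of the UGT2B genes and of these genes stand side by side, and whether they are linked was not tested.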

How the data were processed

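Per the labels' protocols, RNA was labelled with the WT PLUS kit for Affymetrix arrays. The table holds the authors' deposited log2 values, between 1.66 and 18.6. Expression Console, RMA and limma are the tools in the submitters' processing notes, and the build is not given in the sources used. Symbols came from the platform annotation (17709 of 24351 rows with 1 symbol, 0 with several, 6642 with none). The brightest row over all arrays was kept per symbol, which mattered for 0 members and left 17687 genes. Mean brightness is thus the measured value the choice of rows used.

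Groups came from the titles. All 12 arrays entered limma 3.58.1 (R 4.3.3, lmFit and eBayes) with 4 group means, and adjusted p-values are Benjamini-Hochberg over all genes, called under 0.05. Alternatives were leaving out each array, a replicate block, quantile normalization anew, array weights, a dim-gene filter, fewer groups, an intensity trend and mean rows. The combinations that leave out Enza_Ctrl replicate 2 with quantile normalization or with a second array, and a block within a line, were chosen after seeing the data. Members, lists and tests were chosen with earlier results of these data known. Named genes were the 7 members, the called or smallest-p list members, and neighbours. For each of UGT2B15 and UGT2B17, the 3 genes outside the members with the highest Pearson r were also named. FOXA1, UGDH, KRT8, HOXB13, KLK3 and ALB were added after their values were seen. Upstream windows were aligned with Biopython 1.88 (match 2, mismatch -1, gap opening -5, extension -0.5). A further motif that was searched is not reported here. The fit was tested on simulated data. The number of arrays limits the precision.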

Additional observations from a re-analysis of the deposited data

How the results depend on the processing

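Each of the 14 differences between the lines (7 members, 2 treatments) was positive in all 294 refits. It was also positive in all 154 refits with Enza_Ctrl replicate 2 and another array left out. Every Enza array lay above every Abi array for each member, so leaving out arrays could not change the sign. These counts are therefore no test of the direction. The number of members called moved. Between Enza_Ctrl and Abi_Ctrl it was 3 with 12 arrays, 0 to 6 on leaving out arrays, 1 after quantile normalization anew, 0 with only the groups compared, and 6 with array weights and without Enza_Ctrl replicate 2 with the replicate block or quantile normalization. Between Enza_Dex and Abi_Dex it was 3, 0 to 7 on leaving out arrays, 5 without the dimmest genes, and 7 with array weights, with only the groups compared, and without Enza_Ctrl replicate 2 with the replicate block or quantile normalization. Why the counts moved with normalization was not tested.

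Replicate numbers did not pair the arrays throughout. Deviations of same-numbered Abi_Dex and Abi_Ctrl arrays correlated at 0.137, 0.0831 and 0.303, and those of Enza_Dex and Enza_Ctrl at 0.0141, 0.00397 and 0.0818. Across the lines the values were 0.0695, 0.182 and 0.191 for Enza_Dex with Abi_Dex. They were 0.00963, 0.0812 and 0.156 for Enza_Ctrl with Abi_Ctrl. With the replicate block and 12 arrays, 4 members were called between Enza_Ctrl and Abi_Ctrl, with UGT2B15 added at an adjusted p of 0.0390, and 3 between Enza_Dex and Abi_Dex. With blocks within a line, 0 were called for dexamethasone in either line.

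No dexamethasone value was called under any alternative, and small ones changed sign. On leaving out arrays in LNCaPabl-Abi, UGT2B10 ran from -0.39 to 0.30, UGT2B15 from -0.98 to 0.27 and UGT2B17 from -0.96 to 0.23. In LNCaPabl-Enza UGT2B10 ran from -0.23 to 0.55, UGT2B11 from -0.49 to 0.45, UGT2B17 from -0.062 to 0.23 and UGT2B4 from -1.07 to 0.0059. For the difference between the responses UGT2B10 ran from -0.24 to 0.59, UGT2B11 from -0.13 to 0.81, UGT2B15 from -0.20 to 1.05, UGT2B17 from -0.15 to 1.04, UGT2B4 from -0.49 to 0.58 and UGT2B7 from -0.14 to 0.43. After quantile normalization anew, UGT2B10, UGT2B11, UGT2B15 and UGT2B17 were at -0.22, -0.35, -0.080 and -0.057 in LNCaPabl-Enza, and the differences between the responses of UGT2B4 and UGT2B10 at -0.41 and -0.22. With array weights UGT2B17 was at -0.059 in LNCaPabl-Enza, and UGT2B7 at -0.024 for the difference. Without Enza_Ctrl replicate 2, quantile normalization gave UGT2B17 -0.072 in LNCaPabl-Enza and UGT2B10 -0.0052 in LNCaPabl-Abi, and the replicate block gave UGT2B4 0.087 in LNCaPabl-Enza and UGT2B7 -0.043 for the difference. With only the groups compared, the difference between the responses has no separate fit.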
